A study of Mus musculus with 8 samples.

Results

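Chromatin regions called in the ATAC2 library alone were described in sorted bone marrow stromal cells of the mouse. A region was counted as called in ATAC2 alone when no peak of ATAC1, ATAC3, ATAC4, ATAC5, ATAC6 or ATAC7 lay within 500 bases of it, edge to edge. This held for 4669 of the 32280 ATAC2 peaks (14.5%, with a 95% Wilson interval of 14.1% to 14.9%), in a series of 164103 peaks over all 7 libraries. The other 27611 ATAC2 peaks had a peak of another library within that distance. The position of the 6 other libraries' peaks chose the regions, so their distance to those peaks, their reads and their rank are given below as a description with no test. A missing call in another library is not a measurement of closed chromatin there, and the count refers to the peaks in the tables used here: a region near a peak of another library that these tables lack would be counted too.

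The study sorted stromal cells from bone marrow of wild type C57BL/6J mice (the strain as labelled, C57BL/6JJcl in the methods) at 6 weeks after birth, and every library was labelled with that same genotype, strain and age. The age rests on the labels, since the methods give a range of ages for the mice and 6 weeks only for those of the single-cell RNA sequencing. According to the study, cells negative for the blood and endothelial markers CD45, TER119 and CD31 were taken for PDGFRα and Sca-1. The sort methods name CD24, with Sca-1 and PDGFRα, for enriching cells, and CD39 and CD54 for dividing them. The study lists CD24, CD39, CD54, Sca-1 and Ly-6C as candidate markers of its populations. The labels do not state which sorted population the title ATAC2 stands for, nor how many animals were pooled, so the library is named by its title. Each title had 1 library, so there was no replicate check on any value, and a comparison is between these libraries. Wilson intervals cover counting error only. Sequenced fragments that carry no molecular identifier are not independent molecules.

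ATAC-seq uses the transposase Tn5 to insert adapters into DNA that is not wrapped tightly, so that reads pile up over promoters, enhancers and sites of insulator proteins. Promoters tend to be open in many cell types, while distal elements, among them enhancers, differ more between cell types. Skeletal stromal cells of the marrow can give rise to bone, fat and cartilage cells, and cartilage cells are known for the factor SOX9 and the matrix genes it regulates.

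As a check of the label, ATAC2 peaks of any kind were looked up at the starts of marker genes. Over all protein-coding genes, 50.2 percent had a peak centred within 1000 bases of a start. Of 20 stromal niche genes 11 had one, near that share, among them Pdgfra, which was used in the sort, and Cxcl12, the chemokine that retains blood stem cells in the niche. Lepr, Prrx1, Vcam1, Thy1 and Eng were among those without such a peak. According to the study, Cxcl12 and Lepr expression was not seen in the PDGFRα and Sca-1 population, and a peak at a start is no measure of expression. Ly6a, the gene of Sca-1, which was used in the sort too, had none. Among chondrocyte genes 13 of 20 had one, against 9 of 20 for osteoblast, 9 of 20 for adipocyte, 7 of 20 for pericyte and smooth muscle, 9 of 20 for haematopoietic stem and progenitor, 6 of 20 for erythroid and megakaryocyte, 4 of 20 for B lymphoid, 4 of 20 for neural and Schwann, 3 of 20 each for endothelial, myeloid and T and NK, and 2 of 20 for skeletal muscle genes. The endothelial genes Pecam1 and Cdh5 and the pan-leukocyte gene Ptprc had no such peak, and neither did any of 1113 olfactory receptor genes. Other genes of those lists did have one. These were Fli1, Esam and Vwf of the endothelial list, Spi1, Ngp and Cd14 of the myeloid list, and Runx1, Lmo2, Flt3 and Ikzf1 among the stem and progenitor genes. The lists were taken from general knowledge of the cell types, with earlier results of these data known.

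The sequences of the regions are shown before their values, because the base composition and the motifs below were read from them. Each is the 200 bases around the peak's centre on the forward strand of the mm9 genome. Letters that match the AP-1, RUNX or TEAD motif on either strand are in capitals. The first set holds the 3 best-ranked regions that lay over 10 kb from every annotated transcription start. The window chr14:70908419-70908618 lay in an intron of Bmp1, which encodes a protease that trims procollagens. The windows chr16:51160791-51160990 and chr3:135413485-135413684 were intergenic, and the nearest starts were those of Gm6767 and Gm9799.
Bmp1 intron: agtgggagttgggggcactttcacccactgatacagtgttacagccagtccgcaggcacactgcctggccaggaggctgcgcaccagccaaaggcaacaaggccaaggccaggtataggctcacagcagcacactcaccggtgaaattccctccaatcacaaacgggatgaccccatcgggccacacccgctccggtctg
Intergenic, nearest start Gm6767: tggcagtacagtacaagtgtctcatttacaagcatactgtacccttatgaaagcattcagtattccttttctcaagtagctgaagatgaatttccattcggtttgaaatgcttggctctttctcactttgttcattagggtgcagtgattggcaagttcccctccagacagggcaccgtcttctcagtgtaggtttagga
Intergenic, nearest start Gm9799: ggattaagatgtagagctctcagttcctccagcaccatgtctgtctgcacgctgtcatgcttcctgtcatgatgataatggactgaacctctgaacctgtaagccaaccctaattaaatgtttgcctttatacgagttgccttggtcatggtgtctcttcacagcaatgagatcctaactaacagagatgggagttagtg
None of the 3 windows held a match to any of those motifs.

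The second set holds the 3 best-ranked regions at promoters, which were the exception in place among these regions. The window chr14:56210395-56210594 lay around the start of Rnf31, which encodes a ubiquitin ligase of the linear chain assembly complex. The window chr2:72818655-72818854 lay upstream of Sp3, a zinc finger factor that binds GC boxes, in an intron of the gene Gm11084. The window chr7:28012553-28012752 lay in a coding exon of Itpkc, an inositol trisphosphate kinase.
Rnf31 start: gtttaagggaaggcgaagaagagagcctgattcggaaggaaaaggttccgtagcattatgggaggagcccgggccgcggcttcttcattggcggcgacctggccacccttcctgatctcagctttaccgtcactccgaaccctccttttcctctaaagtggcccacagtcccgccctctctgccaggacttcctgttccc
Sp3 upstream: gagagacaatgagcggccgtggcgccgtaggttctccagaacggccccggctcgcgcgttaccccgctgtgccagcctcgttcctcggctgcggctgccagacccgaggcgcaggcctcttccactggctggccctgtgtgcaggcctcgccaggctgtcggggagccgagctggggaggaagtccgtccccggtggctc
Itpkc coding exon: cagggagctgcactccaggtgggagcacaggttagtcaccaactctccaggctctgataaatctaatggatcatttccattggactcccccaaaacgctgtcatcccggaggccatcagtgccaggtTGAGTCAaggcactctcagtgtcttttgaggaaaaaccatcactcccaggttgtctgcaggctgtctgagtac
The Itpkc window held an AP-1 match, and the windows at Rnf31 and Sp3 held none of the 3 motifs.

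The third set holds 2 of the 3 best-ranked regions over 10 kb from every start that contained an AP-1 match, chosen after the motif shares were seen, to show what such a region looks like. Both were intergenic, with the nearest protein-coding start that of Kif16b, a kinesin gene, for chr2:142438111-142438310, and that of Adcy2, an adenylyl cyclase gene, for chr13:69351424-69351623.
Nearest coding start Kif16b: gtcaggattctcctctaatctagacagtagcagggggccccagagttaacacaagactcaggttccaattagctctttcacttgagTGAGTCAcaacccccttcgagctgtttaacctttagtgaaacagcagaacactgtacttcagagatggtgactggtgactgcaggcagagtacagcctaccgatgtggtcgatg
Nearest coding start Adcy2: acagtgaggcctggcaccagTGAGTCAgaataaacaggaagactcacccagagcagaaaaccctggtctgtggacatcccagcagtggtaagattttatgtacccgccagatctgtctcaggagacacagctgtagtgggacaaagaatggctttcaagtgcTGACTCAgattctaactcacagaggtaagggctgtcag
The window nearest to Kif16b held 1 AP-1 match and that nearest to Adcy2 held 2.

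The last set shows regions near 4 cartilage genes, chosen after their values were seen because they stand beside the genes that define the cell type. Col2a1, Acan and Col9a1 encode the type II collagen, aggrecan and a type IX collagen chain of cartilage matrix, and Sox9 encodes the factor that switches them on. The windows were chr15:97844710-97844909 upstream of Col2a1, chr7:86199168-86199367 in an intron of Acan, chr1:24237465-24237664 in an intron of Col9a1 and chr11:112649354-112649553, which was intergenic beside Sox9.
Col2a1 upstream: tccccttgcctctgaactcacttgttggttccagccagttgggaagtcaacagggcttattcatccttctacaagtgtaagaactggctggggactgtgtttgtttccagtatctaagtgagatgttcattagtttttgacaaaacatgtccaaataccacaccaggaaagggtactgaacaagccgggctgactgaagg
Acan intron: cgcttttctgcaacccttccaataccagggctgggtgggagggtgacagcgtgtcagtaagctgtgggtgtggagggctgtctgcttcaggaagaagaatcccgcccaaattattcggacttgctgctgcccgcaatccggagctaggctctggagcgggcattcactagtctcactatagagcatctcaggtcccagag
Col9a1 intron: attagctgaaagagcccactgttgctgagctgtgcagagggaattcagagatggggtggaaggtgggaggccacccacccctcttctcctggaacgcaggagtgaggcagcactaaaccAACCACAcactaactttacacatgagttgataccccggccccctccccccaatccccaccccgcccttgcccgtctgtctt
Sox9 flank: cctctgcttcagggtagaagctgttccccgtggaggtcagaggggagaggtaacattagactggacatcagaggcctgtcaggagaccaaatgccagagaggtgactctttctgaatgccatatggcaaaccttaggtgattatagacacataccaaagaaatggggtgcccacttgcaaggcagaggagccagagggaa
Of these, only the Col9a1 window held a match, to the RUNX motif.

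The regions called in ATAC2 alone were mostly weak peaks. Reads were counted over the outer region, the wider stretch from which a peak was cut. The median was 57 reads, with 90% of regions between 35 and 108, while the other ATAC2 peaks had a median of 129 and 90% between 48 and 679. The Input, 1 control library that served all 7 ATAC libraries, had a median of 10 reads in the regions called in ATAC2 alone and 25 in the others. The authors' fold over Input was 9.68 at the median for the former and 9.21 for the latter, so the weaker regions lay over places with fewer Input reads too. Summed over regions, reads were 5.61 times the Input reads against 6.19 times in the other peaks, without scaling for library size. Input was 0 in 35 regions (0.750%) and in 45 of the other peaks (0.163%), and the fold of such a peak has no meaning.

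**Figure D1:**
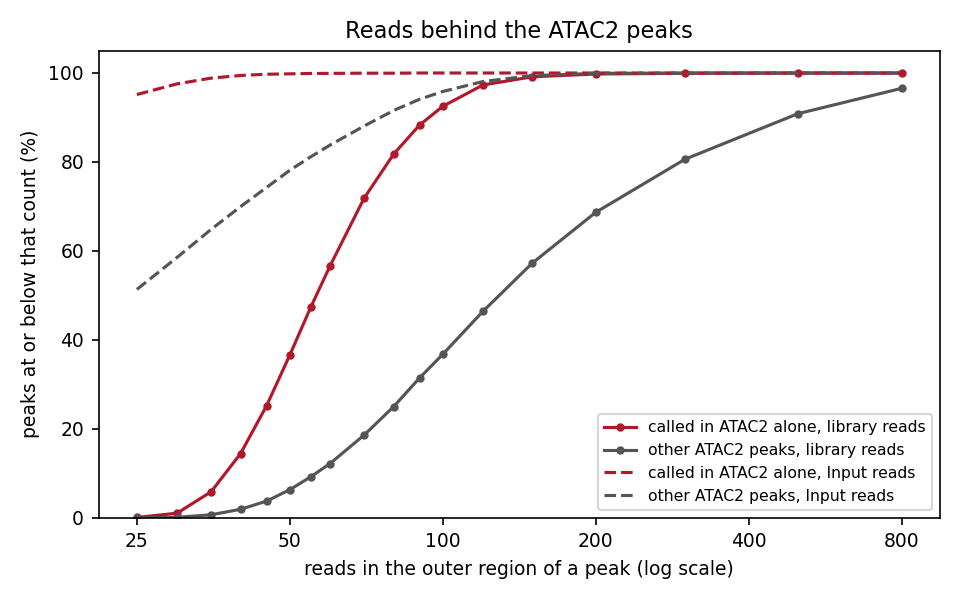
Share of ATAC2 peaks at or below a read count, in percent, against the reads in the outer region on a log axis. Red stands for the 4669 regions called in ATAC2 alone and grey for the 27611 other ATAC2 peaks, with solid lines for ATAC2 reads and dashed lines for Input reads. At 100 reads the red solid line has reached 92.5% and the grey one 36.8%.

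The regions were also narrower. Their median peak length was 140 bases against 182 for the others, and the outer regions spanned 293 against 464 bases. Per kb of outer region the median was 200.4 reads against 302.3. Together the regions held 4.75% of the reads in ATAC2 peaks. Among them 350 had over 100 reads and 11 had over 200.

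In the authors' ranking of the ATAC2 list, the regions gathered at the weak end. The best 8070 peaks held 5 of them, the next 8070 held 282, the third such set 1320 and the last 3062, which was 37.9% of that set. The best rank was 2552, at Rnf31. Near the distance limit the values moved little: 104 ATAC2 peaks that missed the limit of 500 bases by up to 100 bases had a median of 79.5 reads, and 107 regions that passed it by up to 100 bases had 70. Of the ATAC2 peaks that shared a base with another library, 25830 in number, the median was 135 reads. By distance from the nearest peak of another library, the median was 64.5 reads in regions up to 1000 bases away, 57 at up to 10000 bases, 56 at up to 100000 bases and 58 in the 519 regions (11.1%) over 100000 bases away.

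The reads held by peaks of the other libraries bear on what a missing call can mean. At the 6686 ATAC2 peaks overlapped in all libraries, ATAC5 held 1.71 times, ATAC6 1.70 times and ATAC1 1.41 times as many reads as ATAC2 at the median, and ATAC3, ATAC4 and ATAC7 held 0.873, 0.854 and 0.751 times as many. A region at the median of 57 reads would have 97.6 reads at the ATAC5 ratio and 97.1 at the ATAC6 ratio, both above the 44 reads below which 5% of those libraries' peaks fell. At the ATAC1 ratio it would have 80.6 reads, above that library's 5th percentile of 49. At the ratios of ATAC3, ATAC4 and ATAC7 it would have 49.8, 48.7 and 42.8 reads, below their 5th percentiles of 59, 54 and 55 reads. These ratios come from strong shared peaks. ATAC2 peaks with a peak of all 6 other libraries within 500 bases were 86.0% at promoters, with a median of 252 reads. Whether the ratios hold at weak regions away from promoters is unknown, so they do not tell whether another library would have called such a region. The part of these thresholds in the absence of a call was not tested. The nearest peak of another library belonged to ATAC5 in 37.1% and to ATAC6 in 35.3% of regions, the libraries with the longest other lists. The median distance to it was 13124 bases.

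By comparison, 2454 peaks (10.01%) were called in ATAC1 alone, 3837 (12.2%) in ATAC5 alone and 1937 (6.69%) in ATAC6 alone under the same rule. ATAC3, ATAC4 and ATAC7 had 150, 113 and 82 such peaks. The sets of ATAC1, ATAC5 and ATAC6 stand beside the ATAC2 set below because they were chosen in the same way, and their medians of 62, 59 and 52 reads were near 57.

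The regions lay away from promoters. Their centre was within 1000 bases of an annotated transcription start in 403 cases, or 8.63% (7.86% to 9.47%), against 53.0% (52.4% to 53.6%) of the other ATAC2 peaks. It was over 10 kb from every start in 63.6% (62.2% to 64.9%) against 28.1%, and over 100 kb from every start in 10.7% (9.85% to 11.6%) against 3.11%. The median distance to a start was 17485 bases against 679. Distance to a start was not used by the rule directly. Yet the promoter share of ATAC2 peaks was 13.6% with 1 other library within 500 bases and 86.0% with 6. A rule that leaves out peaks near other libraries thus leaves out many promoters. Position also goes with read count in this library, so the share was taken within bands of reads too, which does not remove the effect of the rule.

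Within each band of reads, fewer of the regions called in ATAC2 alone lay at promoters than of the other ATAC2 peaks. From 23 to 45 reads the shares were 6.97% and 19.8%, and from 46 to 60 reads 6.82% and 23.1%. From 61 to 90 reads they were 9.95% and 33.2%, and at 91 reads or more 13.5% and 64.1%. The last band has no upper limit and is not matched in reads: 31.3% of the other ATAC2 peaks had over 200 reads, against 11 of the regions called in ATAC2 alone.

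The sets from the other libraries lay between. At promoters were 13.2% of the peaks called in ATAC1 alone, 16.8% of those in ATAC5 alone and 15.7% of those in ATAC6 alone. The lowest bound of their intervals was 11.9%, but these intervals cover counting error within 1 library each and not the variation between libraries. The shares depended on the distance limit: with at least 1 base in common as the limit in every library, they were 17.8% in ATAC2, 27.0% in ATAC1, 26.6% in ATAC5 and 29.2% in ATAC6, of which the last 3 were added after seeing the data. Over 100 kb from every start were 5.38%, 7.14% and 3.87%, all below the 10.7% of the ATAC2 set.

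**Figure D2:**
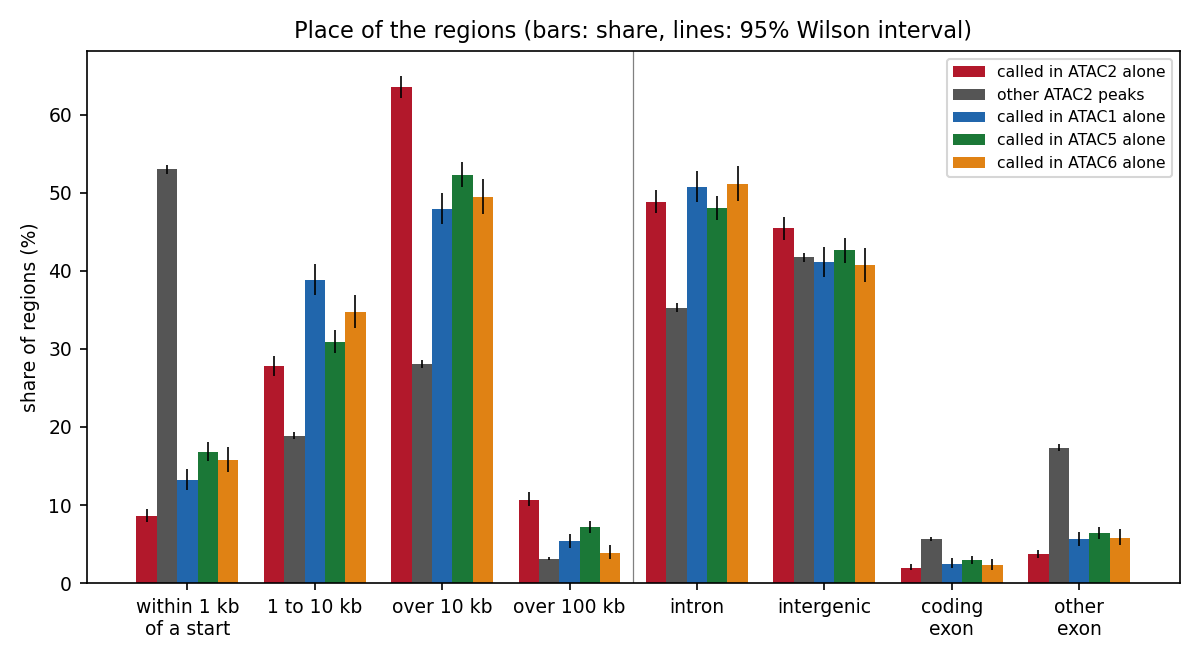
Share of regions in percent by distance to the nearest annotated transcription start (left of the grey line) and by annotation at the peak's centre (right), with 95% Wilson intervals as black lines. Regions called in ATAC2 alone (red) had the lowest share within 1 kb of a start, 8.63%, and the highest over 10 kb from every start, 63.6%, of the 5 sets drawn. The bars for over 100 kb are part of those for over 10 kb.

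By annotation, 48.9% of the centres fell in introns and 45.4% between genes, against 35.3% and 41.7% of the other ATAC2 peaks. Coding exons held 1.99% against 5.63%, and other exons, which include untranslated ones, 3.73% against 17.4%. The nearest start belonged to a protein-coding gene in 72.5% of regions. On the chromosomes the share of ATAC2 peaks that were called in ATAC2 alone ran from 9.70% on chromosome 11 to 19.2% on chromosome 12, leaving out the Y chromosome with 1 of 24. Among peaks not at promoters it ran from 22.1% on chromosome 8 to 29.7% on chromosome 12, so part of the spread went with promoter content.

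The regions were less rich in G and C than the other ATAC2 peaks, and the gap was smaller away from promoters. The median GC content of the 200-base windows was 49.5% against 56.5% in the other ATAC2 peaks. With promoter peaks left out of both, it was 49.5% against 51.0%. No CpG dinucleotide was present in 11.5% of windows against 3.82%, or 11.95% against 7.56% with promoters left out.

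Of 25 motifs searched on both strands, that of AP-1, the dimers of the Fos and Jun families that respond to growth and stress signals, was the most common in these regions. The letters TGANTCA were found in 29.6% (28.3% to 30.9%) of windows of the regions called in ATAC2 alone. They were found in 5.83% of equally long windows 300 to 500 bases upstream of the same centres and in 12.5% of windows of all peaks of all libraries. Matches were gathered at the centre: per 1000 regions there were 112 and 104 in the 50-base bins on either side of it, and no more than 17.8 in any bin over 300 bases away. A match is a description of the letters and not a bound site.

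**Figure D3:**
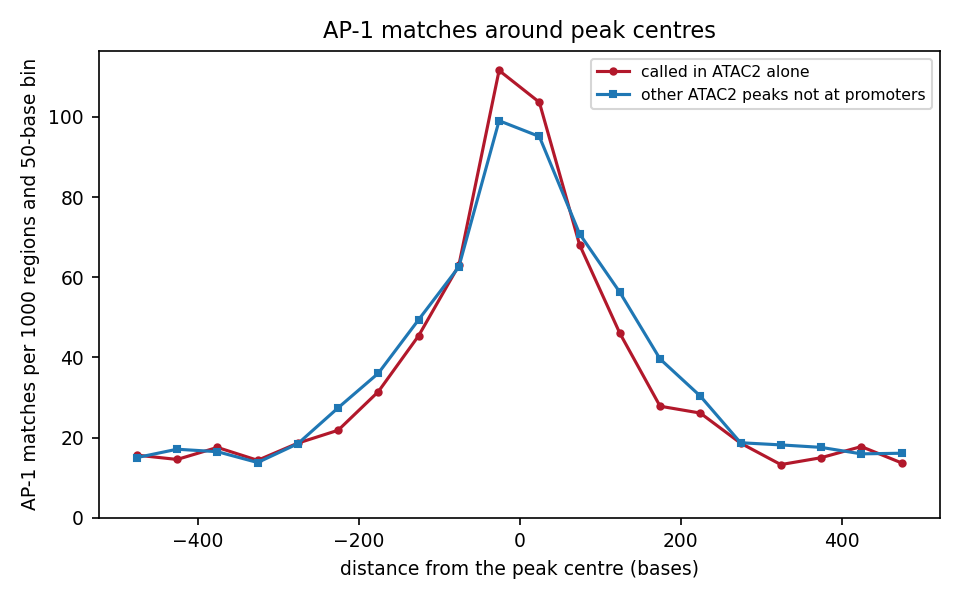
AP-1 matches per 1000 regions in bins of 50 bases, against the distance of the bin from the peak centre in bases. The red line (4669 regions called in ATAC2 alone) and the blue line (12973 other ATAC2 peaks not at promoters) both peak at the centre, at 112 and 99.1, and lie between 13.3 and 18.2 beyond 300 bases.

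The AP-1 share was high in distal ATAC2 peaks in general. Not at promoters, 30.5% (29.2% to 31.9%) of the regions called in ATAC2 alone held a match, against 27.3% (26.5% to 28.0%) of the other ATAC2 peaks. Grouped by how many of the other libraries had a peak within 500 bases, the share was 30.4% with 1, 29.7% with 2, 28.6% with 3, 24.3% with 4, 24.8% with 5 and 16.3% with 6. The regions called in ATAC2 alone thus stood level with peaks shared by 1 or 2 libraries. In the peaks called in 1 other library alone, also not at promoters, the shares were 11.4% in ATAC1, 25% in ATAC5 and 18.8% in ATAC6. Among all regions called in ATAC2 alone, promoters included, the weaker ones held more AP-1 matches: in 4 sets of like size, ordered by reads from the strongest to the weakest, the share was 24.7%, 28.2%, 32.6% and 32.7%, while the promoter share was 11.7% in the first set and 7.03% in the last.

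RUNX factors, which include the osteoblast regulator RUNX2 and the blood regulator RUNX1, have the motif TGTGGTT. It was found in 9.94% of the regions called in ATAC2 alone and in 4.73% of the upstream windows. Not at promoters it was found in 10.5% of the regions called in ATAC2 alone and in 8.49% of the other ATAC2 peaks. TEAD factors act with the Hippo pathway's coactivators. Their motif GGAATG was found in 13.99% of the regions and 10.4% of the upstream windows, and, not at promoters, in 14.3% of the regions and 13.2% of the other ATAC2 peaks. The 2 motifs occurred at much the same rate with and without AP-1: RUNX in 9.20% and 10.2%, and TEAD in 14.6% and 13.7%.

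The motifs of GATA factors and of PU.1 were less common here than in peaks called in ATAC1 alone. The GATA motif AGATAA was found in 3.60%, level with the 3.59% of the other ATAC2 peaks and below the 10.3% of the upstream windows, while the peaks called in ATAC1 alone and ATAC6 alone held it in 14.8% and 11.9%. With promoters left out it was 3.59% against 4.41% of the other ATAC2 peaks. The letters GAGGAAGT of PU.1, the master factor of myeloid and B cells, were found in 1.71% against 8.07% in ATAC1 alone, 1.03% in ATAC6 alone and 1.09% in the upstream windows. CTCF, the insulator protein, had a match in 2.74%, against 0.150% in upstream windows, 1.97% in the other ATAC2 peaks, 1.26% in ATAC1 alone, 6.31% in ATAC5 alone and 7.43% in ATAC6 alone. With promoters left out it was 2.91% against 3.34% in the other ATAC2 peaks, so the order of these 2 sets turned. The promoter motifs were scarce: the GC box GGGCGG of the SP and KLF factors was found in 5.85% against 36.9% in all peaks, CCGGAAGT of other ETS factors in 0.236% against 2.99%, and GCGCATGCG of NRF1 in 0.0214% against 1.39%. The SOX motif ACAATGG was found in 1.69%, below the 2.38% of the upstream windows.

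The genes near the regions were listed next. A region called in ATAC2 alone lay within 50 kb of a start of 4323 of 22380 protein-coding genes, which is 19.3 percent and serves as the background for every list. Of these genes 3204 had 1 such region, 805 had 2 and 314 had 3 or more. The other ATAC2 peaks reached 73.6 percent of genes, and the peaks called in 1 library alone reached 15.7 percent in ATAC1, 21.7 percent in ATAC5 and 14.8 percent in ATAC6. Regions near 1 gene share a locus and are not independent of each other.

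Chondrocyte genes stood highest among the lists. Of 20 genes, 15 had a region called in ATAC2 alone within 50 kb of a start, or 75% beside the background of 19.3 percent. Under the same rule 4 of the 20 had one called in ATAC1 alone, 9 in ATAC5 alone and 3 in ATAC6 alone. Within 10 kb of a start the count was 12 of 20, with 6.19% of all protein-coding genes. The other ATAC2 peaks reached 18 of the 20. With lists cut to the best 15188 peaks of each library the count was 7 of 20, with 6.96% of all protein-coding genes. No test of the list was made, since it was chosen with earlier results of these data known.

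**Figure D4:**
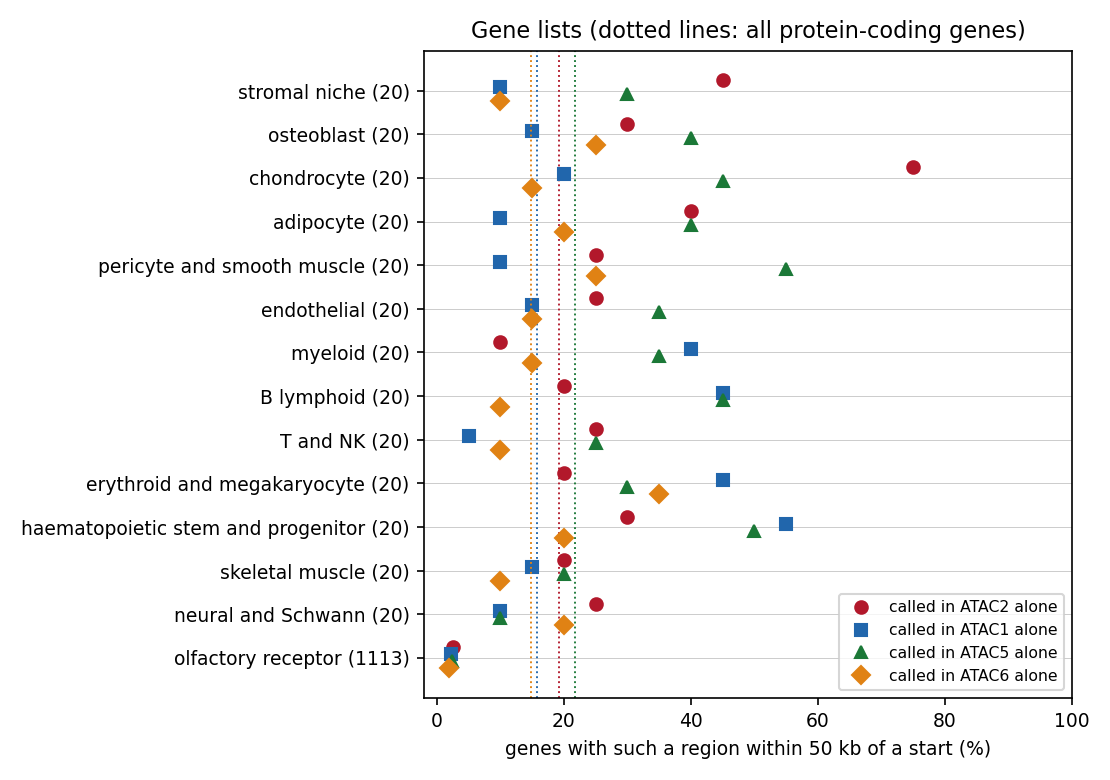
Percent of the genes in each list with a region called in 1 library alone within 50 kb of a start, with the number of genes in brackets. Symbols stand for the library and dotted lines of the same colour for all protein-coding genes. The chondrocyte list in ATAC2 (red) lies at 75%, and the next highest for ATAC2 is the stromal niche list at 45%.

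The other stromal lists lay lower. Stromal niche genes had such a region in 9 of 20, adipocyte genes in 8, and osteoblast genes in 6. Pericyte and smooth muscle genes had one in 5, where peaks called in ATAC5 alone reached 11. With lists of equal length the counts were 5 of 20 for stromal niche, 0 for adipocyte, 1 for osteoblast and 1 for pericyte and smooth muscle genes. With at least 1 base in common as the limit, where 28.5% of protein-coding genes had a region, the counts were 18 of 20 for chondrocyte, 14 for osteoblast, 11 for adipocyte, 9 for stromal niche and 6 for pericyte and smooth muscle genes. Of the lists of other cell types, haematopoietic stem and progenitor genes had 6 of 20, endothelial, T and NK, and neural and Schwann genes had 5 each, B lymphoid, erythroid and megakaryocyte, and skeletal muscle genes had 4 each, and myeloid genes had 2. With at least 1 base in common these lists held from 3 of 20, for myeloid genes, to 10 of 20, for stem and progenitor genes. The ATAC1 set lay higher for 4 of the 5 blood lists, with 11 of 20 stem and progenitor, 9 of 20 B lymphoid, 9 of 20 erythroid and megakaryocyte and 8 of 20 myeloid genes, and lower for T and NK genes, with 1 of 20. Olfactory receptor genes, which are silent outside the nose, had one in 28 of 1113, or 2.52%.

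In all 22 regions lay near the 15 chondrocyte genes, with 31 to 182 reads and a median of 63. Of these, 14 lay within 10 kb of a start and 2 within 1000 bases. The strongest stood in an intron of Col9a1 at chr1:24237455-24237676, 1209 bases downstream of a start, with 182 reads against 21 in Input at rank 9672. Its RUNX match is the one in capitals in the sequence above. The next peak of any other library was 18446 bases away. Over the 22 regions this distance ran from 975 bases at Comp to 71169 bases at Sox5, and it was 984 bases for the Acan region shown above.

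Regions near other matrix genes held fewer reads. The better-ranked Acan region lay 899 bases downstream of a start at chr7:86199175-86199362 with 94 reads against 9, and the other 15909 bases downstream with 53 against 15. Col2a1 had 1 region 9655 bases upstream at chr15:97844720-97844901 with 69 reads against 10, and another 44517 bases upstream, in an intron of Senp1, with 57 against 21. Col11a2, a chain of type XI collagen, had regions 179 bases upstream with 82 reads against 38 and 1628 bases downstream with 61 against 21. These 3 genes are all part of the cartilage matrix that surrounds a chondrocyte.

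Among the regulators, Ihh and Sox9 had 1 region each. Ihh encodes the hedgehog ligand of growth plate chondrocytes, and its region lay 13600 bases upstream at chr1:75011684-75012008 with 102 reads against 17. It was the single peak within 50 kb of an Ihh start in any of the 7 libraries, and the nearest peak elsewhere was 59473 bases off. Sox9 had a region 3412 bases downstream of a start and outside the gene, at chr11:112649239-112649669, with 67 reads against 13. Sox5, a partner of SOX9, had one in its intron, 40707 bases from the nearest start, with 57 reads against 4.

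Comp, which encodes a cartilage matrix protein that binds collagen, had 3 entries. They held 109, 94 and 67 reads against 39, 30 and 14 in Input, and the first and second, 2938 and 2675 bases upstream, overlapped each other. Col10a1, the collagen of hypertrophic chondrocytes, had 2 regions, both in introns of Nt5dc1, with 43 reads against 2 and 61 against 5. Ucma, a cartilage matrix protein gene, also had 2, with 70 against 14 and 62 against 10. Hapln1, Matn1, Matn3, Prg4 and Lect1 had 1 each, with 31 to 64 reads. Sox6, Col11a1, Trps1, Chad and Epyc had none.

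**Figure D5:**
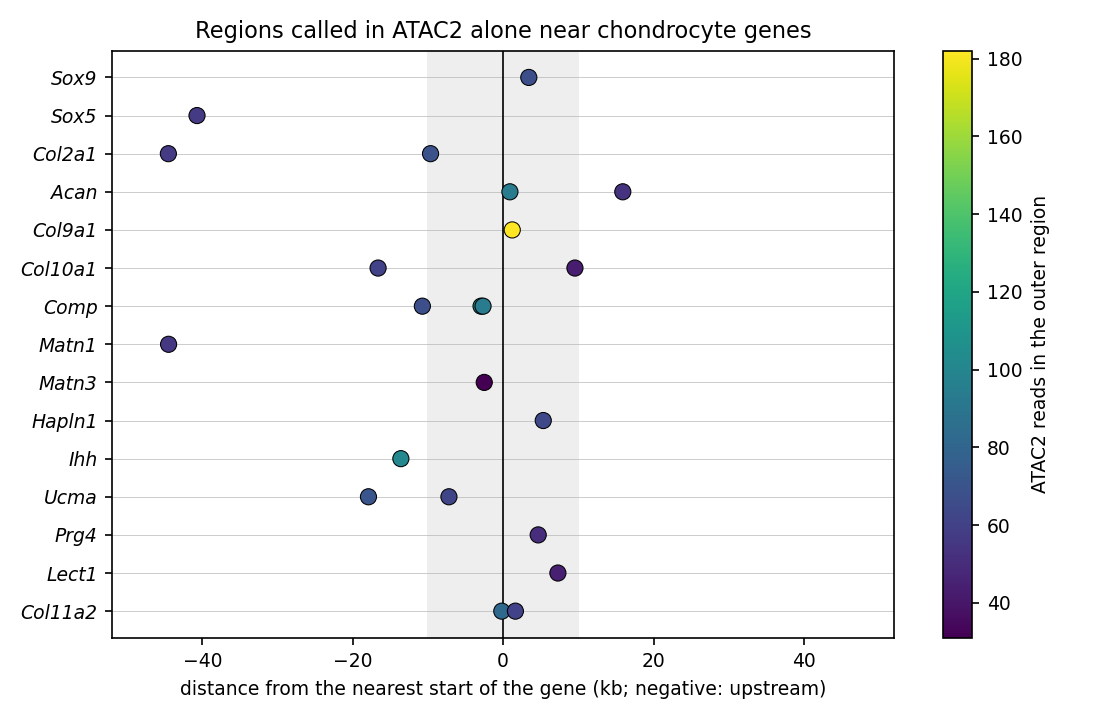
Distance in kb of each of the 22 regions from the nearest start of its gene, for the 15 chondrocyte genes that had one, with negative values upstream and the 10 kb on each side shaded. Colour gives the ATAC2 reads, from 31 at Matn3 to 182 at Col9a1. Of the 22 regions, 14 lie in the shaded band.

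Peaks of every kind near the 20 chondrocyte genes were counted in each library for comparison. ATAC2 had a peak within 50 kb for 19 of the 20 genes, ATAC6 for 18 and ATAC5 for 17, where all protein-coding genes gave 75.4 percent, 74.7 percent and 75.9 percent. ATAC1 had one for 13, ATAC7 for 12, ATAC3 for 11 and ATAC4 for 10 of the 20, near or below the shares of 71.5 percent, 65.3 percent, 66.2 percent and 65.5 percent over all genes. For Acan, ATAC2 had 6 peaks and ATAC6 had 5, and the other 5 libraries had none. For Col9a1, Hapln1 and Lect1 ATAC2, ATAC5 and ATAC6 each had 3 to 5 peaks and the other libraries none. Most of these genes therefore had peaks in ATAC5 and ATAC6 as well, with the regions described above in addition in ATAC2.

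Few of the chondrocyte regions held an AP-1 match. An AP-1 match was present in 1 of the 22, that at Lect1, or 4.55% (0.807% to 21.8%), beside 29.6% over all regions called in ATAC2 alone. RUNX matched in 3, TEAD in 3 and SOX in 1. In the stromal niche list AP-1 matched in 5 of 10 regions, in the adipocyte list in 6 of 14, in the osteoblast list in 4 of 7 and in the T and NK list in 0 of 6. Neural and Schwann regions matched in 2 of 9, skeletal muscle in 2 of 8 and B lymphoid in 1 of 4. The low share near chondrocyte genes was noticed after the values were seen and has no test.

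Of the stromal niche genes, Il7, which encodes a cytokine for lymphocyte precursors, had the best-ranked region. It lay in an intron at chr3:7607347-7607523 with 133 reads against 7 in Input and an AP-1 match. Nt5e, the gene of the stromal surface marker CD73, had a region 37651 bases upstream with 192 reads against 23, and Eng, the gene of the TGF-beta coreceptor endoglin, 1 at 39764 bases with 65 against 23. The Ebf1 intron held a region with 62 reads against 5 and matches to both AP-1 and RUNX. EBF1 is a factor of B cells and of marrow stroma, and the nearest peak of another library was 91370 bases away. Across the stromal niche regions that distance went down to 702 bases, for the region counted at Pdgfrb.

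Among osteoblast genes, Ibsp and Mepe, which encode bone matrix proteins and lie side by side, shared 1 region in a Mepe intron with 119 reads against 4. Sparc, the osteonectin gene, had a region with 72 against 11, and Pth1r, the receptor of parathyroid hormone, had 3 with 38 to 53 reads. Among adipocyte genes the best-ranked were at Cebpa, a factor of fat differentiation, with 3 regions of 93, 114 and 47 reads. Prdm16, a factor of brown fat, had 3 with 54, 67 and 73 reads, and Retn, the resistin gene, had 1 with 59. The remaining stromal genes of these lists had regions of 29 to 99 reads.

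In the lists of other cell types the regions were few and of like strength. Each is named by a gene with a start within 50 kb, and some lay inside another gene. Pericyte and smooth muscle genes had 5 in all, led by Acta2, the smooth muscle actin gene, with 64 reads, Synpo2 with 43 and Cald1, the caldesmon gene, with 35. Endothelial genes were led by Egfl7 with 76 reads, the von Willebrand factor gene Vwf with 101 and 47, and the VEGF receptor gene Flt1 with 42 in each of 2. Haematopoietic stem and progenitor genes included Hlf with 93 and Myb with 33, 42 and 62. None of these lists had more than 9 regions.

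Lymphoid, myeloid and erythroid genes had a handful of regions. In the B lymphoid list the best-ranked were those of Fcrla with 101 reads, Ciita, the activator of MHC class II genes, with 79 and Pou2af1 with 62. The Fcrla region lay in an intron of Fcrlb, 9941 bases from an Fcrla start, and the Pou2af1 region 43217 bases from a start. The T and NK list was led by Gata3 with 54, Cd28 with 60 and Tcf7 with 50, and the myeloid list by Csf1r with 46 and 33 and S100a8 with 41, where the Csf1r region of 33 reads is also the one counted for the stromal gene Pdgfrb. The platelet factor gene Pf4 had 2 with 105 and 48, Tal1 had 3 with 49 to 60, and Nfe2 had 1 with 70. The Nfe2 region lay in an intron of Cbx5, 37092 bases from an Nfe2 start. Casq1 with 68 reads, Tnni2 with 37 to 63 in 4 regions and Mef2c with 49 led the skeletal muscle list. Dlg2 with 42 to 154 and Sox10 with 30 were among those of the neural and Schwann list. These reads lay within the range of 23 to 890 over all regions called in ATAC2 alone.

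Of the 10 best-ranked regions of the whole set, 1 lay near a gene of the marker lists, that in the Il7 intron. That at Rnf31, chr14:56210421-56210569, held 890 reads against 90 in Input, 50 bases upstream of a start and 5275 bases from another library's peak. That at Sp3, chr2:72818569-72818942, held 425 against 86, 252 bases upstream. Both are promoters of widely expressed genes, and they were the strongest of the set by reads. The Bmp1 intron region at chr14:70908380-70908659 followed by rank, with 194 reads against 34.

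Of the next, chr16:51160828-51160954 held 147 reads against 6 and lay 203054 bases from any start and 406803 bases from any other library's peak. The region chr3:135413431-135413739 held 297 against 17. Upstream of Uck2, a uridine kinase gene, chr1:169220254-169220258 held 205 against 19, with a listed peak of 5 bases within a longer outer region. The region upstream of Crip1, a small LIM protein gene, at chr12:114385882-114386190 held 247 against 38. A region 31321 bases from a U6 start, with Slitrk6 the nearest coding gene, held 174 against 7, the Il7 intron region followed, and an intron region of Tcte2 held 146 against 27 with a RUNX match. AP-1 matched in 2 of these 10, at Uck2 and Il7. After Rnf31, Sp3 and Itpkc, the promoter regions were led by Gm17502 with 96 reads, Prickle1, a planar polarity gene, with 88 and Gm17407 with 158.

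Some genes had several regions called in ATAC2 alone within 50 kb of their starts. Arhgap26, which encodes a GTPase activating protein, had the most with 8, of which 7 were inside the gene, with 41 to 73 reads. Myo10, an unconventional myosin gene, had 7 inside the gene with 30 to 77 reads, and Cd82 and Tspan18, 2 tetraspanin genes, had 7 each with 63 to 112 and 51 to 97 reads. Bcas1 had 7 with 35 to 53. Dlc1, another GTPase activating protein gene, had 6 with 43 to 114, Col15a1, a basement membrane collagen gene, had 6 with 44 to 197, and Tns3, a focal adhesion gene, had 6 with 47 to 88. Fgf1 had 6, which lay by Arhgap26 too, and 4933407C03Rik had 6. Gene length and the number of starts were not taken into account in this order.

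The stretches of 100 kb with the most regions were at Tspan18, Cd82 and Bcas1, with 7 each. At Tspan18, chr2:93057302-93125930, 4 other ATAC2 peaks lay in the stretch, ATAC5 had 4 peaks, ATAC6 had 3 and the other 4 libraries none. At Bcas1, chr2:170229442-170271813, there were 2 other ATAC2 peaks, 1 peak each in ATAC5 and ATAC6 and none elsewhere. At Cd82, chr2:93245365-93284745, every library had peaks, from 2 in ATAC7 to 9 in ATAC1. Over the whole set such grouping was not the rule: 896 regions (19.2%) had another of their kind within 10 kb, and 34.6% had within 10 kb one of the other ATAC2 peaks, which have a peak of another library near them. After merging entries that overlapped, 4631 separate stretches remained.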

How the data were processed

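ATAC-seq libraries ATAC1 to ATAC7 and 1 Input library were used through the peak tables of the 7 ATAC libraries. The authors aligned reads to mm9 with bowtie and called peaks separately for every library in CisGenome, in a two-sample comparison with Input (p-value limit 1e-05, FDR below 0.01). A shift of reads for Tn5 or removal of duplicates is not given in the sources used here; a missing shift moves edges by a few bases. The label's extraction text describes RNA and was not relied on. Sites that failed the peak call leave no value, and total library depth is unknown.

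The deposited tables have no header, so columns were identified from their values. They hold whole-number counts of library and Input reads in the outer region, the authors' fold over Input (a ratio, with 0.01 added to Input), and 2 signal columns of the authors' peak caller. A deposited score-like position column was not used. Coordinates are printed as in the tables, read as inclusive; counting from 0 in the deposited tables would shift starts by 1 base. Separate coordinate lists equalled the tables in all 164103 rows.

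The regions, gene lists, motifs and comparisons were chosen with earlier results of these data known. Distances were taken edge to edge between peaks, and from the peak centre to any transcript start of GENCODE vM1. Sequences came from the NCBIM37 genome, which is mm9. Motifs were searched on both strands of 200-base windows, with no mismatch allowed, and may overlap each other. Ambiguity letters stood in those of AP-1, C/EBP, EBF, STAT, the interferon element, CTCF, NFI, MEF2, NF-kB and GR. Genes were matched by symbol, 4 of them through RefSeq synonyms. Named items were the 10 best-ranked regions, the 5 best-ranked over 10 kb from every start, up to 3 genes per list by best rank, the 10 genes with most regions and the 3 densest 100 kb stretches; all chondrocyte regions and some further genes were added after values were seen. A few items that the rule names are not reported here. No test was run, since each title has 1 library. Shares have 95% Wilson intervals. Alternatives changed the distance, the edges, the fold, the list length, the promoter and gene windows and the libraries in the rule. The overlap, interval and motif steps were tested on simulated data. Software was Python 3.11.15 with matplotlib 3.10.9, scipy 1.17.1, pandas 2.3.3 and numpy 2.4.6.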

Additional observations from a re-analysis of the deposited data

How the results depend on the processing

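No paired analysis was possible because no title had a second library. The set of regions called in ATAC2 alone held 3957 to 6958 under every alternative but 1. With the best 15188 peaks of each list it held 1316, whose medians were 124 reads, 15 Input reads and a GC of 50.5%, with a pooled ratio of 7.89, 11.2% at promoters (72.7% of the other ATAC2 peaks), 33.4% with AP-1 and 7 of 20 chondrocyte genes, beside 6.96% of protein-coding genes. With at least 1 base in common as the limit, 17.8% were at promoters (others 53.8%), with medians of 62 reads, 11 Input reads and a GC of 50.5%, and AP-1 in 25.2%. At 2000 bases the values were 6.77% at promoters (others 52.2%) and a ratio of 5.74. With outer regions 7.44% were at promoters. With a fold of at least 5 in every library the others had 50.3% at promoters, and the median was 58 reads and the ratio 6.07. Promoter windows of 500 and 2500 bases gave 5.38% and 15.8% (others 47.3% and 59.1%), and protein-coding starts alone 7.09% (others 51.0%). Genes near a region were 6.19% within 10 kb and 11.2% by gene body, with 12 and 14 chondrocyte genes. AP-1 matched in 18.8% of 100-base windows. Leaving ATAC5 or ATAC6 out of the rule, chosen after seeing the data, gave 6393 and 6958 regions, and without ATAC5 10.6% were at promoters. The promoter share stayed below that of the other ATAC2 peaks in each setting where both were computed. The cause of these moves was not tested. The precision is limited by the weak peaks, with a median of 57 reads, and by the lack of a second library.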
